A study of Mus musculus with 2 samples.

Results

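Serum amyloid A and other microbiota-induced epithelial genes were examined in cells described as gut epithelial cells, from Lrrc19 knockout (KO) and wild-type (WT) mice. They are the 9 genes Saa1, Saa2, Saa3, Saa4, Lcn2, Hp, Duox2, Duoxa2, and Nos2, chosen by name with earlier results of these arrays known. All probe sets that carry the symbol of a member were taken, which gave 10 probe sets for 8 of the 9 genes, out of 18193 genes on the array that have their own probe set. None of the 10 carries a second gene symbol, and Duox2 was not analysed here because no probe set of the annotation used names it. Each genotype was measured on 1 Affymetrix mouse genome array. The Lrrc19 KO array carried RNA pooled evenly from 5 Lrrc19 KO mice, and the WT array carried RNA pooled evenly from 5 WT mice. Each pool held 2 males and 3 females of 6 weeks of age on the C57BL/6 background, kept free of specific pathogens. The cells were shaken off the intestine with EDTA and depleted of CD4 and CD8 cells, B cells, dendritic cells (DCs), and macrophages. The knockout line came from the study's own laboratory, and the exons it lacks are not given in the sources used here.

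LRRC19 is a leucine-rich repeat receptor of the gut epithelium, and the arrays were made to ask what its loss does to epithelial transcripts. The serum amyloid A proteins are small apolipoproteins of the acute-phase response. The liver secretes them in inflammation, but the epithelium of the ileum and colon also makes them when bacteria touch its surface, and interleukin 22 (IL-22), acting through STAT3, is a known inducer. The other members belong to the same defense layer. Lipocalin 2 (Lcn2) withholds bacterial iron carriers, haptoglobin (Hp) binds free hemoglobin, the dual oxidase DUOX2 with its maturation factor DUOXA2 releases hydrogen peroxide at the apical surface, and NOS2 makes nitric oxide.

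All values are intensities on a linear scale, and a probe set is called measured in a pool when it reaches the floor, the median of all probe set values (an intensity of 127). With 1 pool per genotype the spread between mice is unknown, so no test, standard error, or p-value is given, and every difference compares these 2 pools with no replicate check. The number of arrays limits the precision. A gene is called higher or lower when it differed at least 2-fold in the Lrrc19 KO pool and reached the floor in at least 1 pool. The Lrrc19 transcript itself was at 212 in the KO pool and 905 in the WT pool on 1 probe set, and at 20.9 in the KO pool and 391 in the WT pool on the other. Since the deleted exons are not given, it is not known whether either probe set falls within them. The epithelial markers Epcam (12915 in KO and 12473 in WT) and Krt8 (20184 in KO and 19633 in WT) were bright, as was the smooth muscle transcript Acta2 (14996 in KO and 12549 in WT). The pools thus held transcripts of smooth muscle beside those of epithelium, and a value here cannot be assigned to epithelial cells alone. The scaling between the arrays is not known either. The 18 spike-in probe sets, which detect bacterial and phage transcripts added as hybridization controls, were all brighter on the KO array, and their median log2 difference was 0.50. Because of this offset, differences are also given below with the arrays centered on the spike-ins. Such controls follow the hybridization and not the sample RNA, so whether this scaling is the right one is not known. The ratio of 3' to 5' signal, which rises as RNA degrades, was 1.50 in KO and 1.26 in WT for Gapdh, 1.77 in KO and 1.75 in WT for Actb, and 5.89 in KO and 4.14 in WT for the transferrin receptor. The KO pool thus had the higher ratio for each of the 3 transcripts. Its part in the differences was not tested.

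All 10 probe sets of the members had higher values in KO than in WT, and the differences ranged from almost nothing to nearly 3-fold. Saa1 and Saa2 passed 2-fold, and Saa3, Saa4, Lcn2, and Duoxa2 did not. Hp and Nos2 stayed under the floor in both pools. No member was lower in KO. Of the 6 members that reached the floor, 2 were thus called higher, where 0.559% of all 12518 genes at or above the floor were called higher and 0.407% lower. Both calls rest on probe sets that the annotation lists with the same reference transcript, so they may share signal. The median log2 difference (Lrrc19 KO minus WT) was 0.71 over these 6 members and 0.01 over all 12518 genes. Because the genes were chosen from this comparison, these numbers describe them and nothing is read from them. A difference above 0 was itself common. It was found in 52.1% of the 12518 genes, in 53.2% of probe sets that reached the floor, and in 56.7% of all probe sets that are not controls. With the spike-ins as the reference, 5 of the 10 probe sets were above 0 and 5 were below it. Under that scaling 3.96% of the 12996 genes at or above its floor were above 0.

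**Figure D1:**
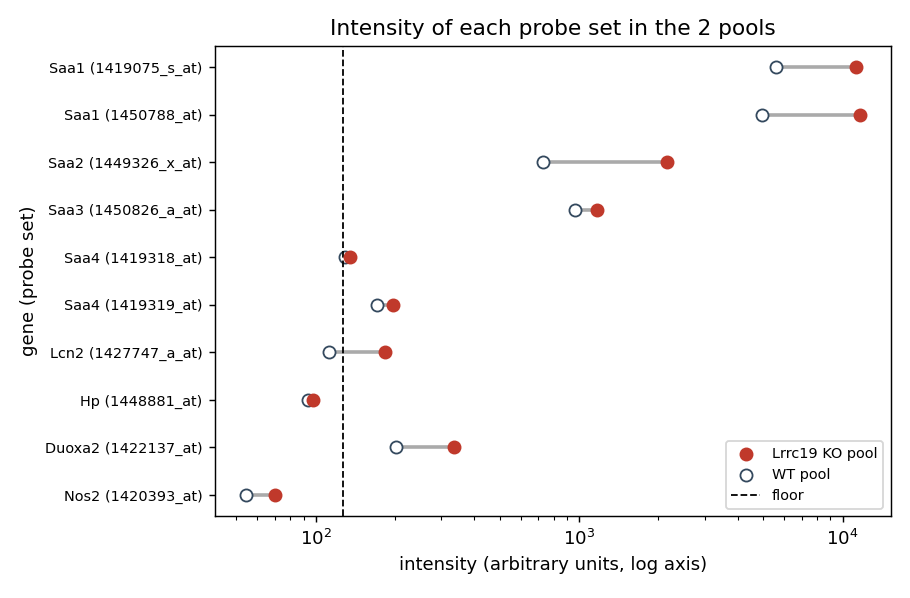
Intensity of each of the 10 probe sets (log axis, arbitrary units) in Lrrc19 KO (filled) and WT (open), each point being 1 array, so that error bars cannot be drawn. A dashed line marks the floor, 127. The gap between the pools is widest for Saa2 (2154 in KO and 733 in WT), and Hp and Nos2 lie left of the floor in both pools.

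Saa1 and Saa2 encode the acute-phase apolipoproteins proper, which ride on high-density lipoprotein and carry retinol. Saa1 was read by a pair of probe sets. On 1419075_s_at its intensity was 11265 in the KO pool and 5585 in the WT pool (2.02-fold higher, log2 difference 1.01). On 1450788_at it was 11629 in KO and 4931 in WT (2.36-fold higher, log2 difference 1.24). Both probe sets thus placed KO above WT by at least 2-fold as deposited. With the spike-ins as the reference neither did (log2 differences of 0.52 and 0.74), and with equal array medians the first did not (0.93). Saa2 was read by 1449326_x_at alone, at 2154 in KO and 733 in WT (2.94-fold higher, log2 difference 1.56), which was the largest difference among the members. By size of increase, Saa2 was number 20 and Saa1 number 67 of the 12518 genes at or above the floor.

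The transcripts of these 2 genes are close copies, so it matters which of them each probe set reads. A name ending in _s_at or _x_at marks a probe set that can match several transcripts, which is the case for the first Saa1 probe set and for that of Saa2. The annotation lists the first Saa1 probe set and the Saa2 probe set with the same reference transcript, which RefSeq assigns to Saa2, although it names them for different genes. RefSeq also lists Saa2 among the synonyms of Saa1, and Saa1 among those of Saa2. The remaining probe set, 1450788_at, has no such suffix, and its reference transcript is one of Saa1. The 3 probe sets therefore describe the Saa1 and Saa2 pair, and how the difference divides between the genes cannot be told apart on 2 of them.

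The 2 genes are neighbors on chromosome 7. In the RefSeq gene table the order there is Saa3, a long noncoding RNA gene, Saa4, the pseudogene Saa-ps, Saa1, and Saa2. The stretches of 250 bases before their start sites are shown because those of Saa1 and Saa2 are near copies of each other, with that of Saa3, whose level differed less, for comparison. They are RefSeq sequences of build GRCm38.p6, written 5' to 3' on the strand of the gene. That of Saa1 is chr7:46742981-46743230 on the minus strand, that of Saa2 is chr7:46751583-46751832 on the plus strand, and that of Saa3 is chr7:46715677-46715926 on the minus strand. Capitals mark matches to the C/EBP motif TTNNGNAAT and to the NF-κB consensus on either strand.
Saa1: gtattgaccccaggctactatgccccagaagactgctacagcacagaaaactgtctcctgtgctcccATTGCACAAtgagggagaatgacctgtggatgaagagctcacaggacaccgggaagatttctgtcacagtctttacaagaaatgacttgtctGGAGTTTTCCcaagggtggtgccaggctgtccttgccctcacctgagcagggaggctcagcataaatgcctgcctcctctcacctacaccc
Saa2: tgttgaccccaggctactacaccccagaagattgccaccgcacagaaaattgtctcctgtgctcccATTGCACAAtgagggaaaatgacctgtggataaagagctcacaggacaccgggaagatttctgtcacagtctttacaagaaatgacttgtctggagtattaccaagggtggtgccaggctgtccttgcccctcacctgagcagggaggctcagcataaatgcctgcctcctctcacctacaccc
Saa3: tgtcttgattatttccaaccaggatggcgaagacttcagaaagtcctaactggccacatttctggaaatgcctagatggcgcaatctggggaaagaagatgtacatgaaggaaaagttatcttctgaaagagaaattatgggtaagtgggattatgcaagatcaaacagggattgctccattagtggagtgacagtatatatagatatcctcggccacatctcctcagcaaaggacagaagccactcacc
Aligned end to end, the windows of Saa1 and Saa2 had 238 identical bases of 251 aligned positions (94.8%), with 11 mismatches and 2 gapped positions. The other 20 pairs among the 7 members in the promoter table had 45.7% to 53.5% identity.

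Motifs known to act in acute-phase promoters were looked for in these windows, on both strands. They were chosen after the sequences were read, so the matches and shares describe the windows and nothing is read from them. C/EBP factors and NF-κB are textbook activators of serum amyloid A genes. The C/EBP motif lay on the minus strand from base -183 to base -175 in Saa1 and from base -184 to base -176 in Saa2, counted from the start site, and was held by 10.2% of the 32851 promoter windows of the table. The NF-κB consensus lay from base -91 to base -82 in Saa1 and from base -43 to base -34 in Lcn2, with 16.8% of all windows holding it. The Saa2 window had no match to it. Neither motif, in the form searched, was found in the Saa3 or Saa4 window, and looser forms were not searched. The Duox2 window held the C/EBP motif from base -190 to base -182, and that of Duoxa2 held TATAAA from base -30 to base -25, which 12.4% of all windows hold. The STAT motif TTCNNNGAA, held by 7.02% of all windows, was in none of the 7. The matches do not overlap each other. A match is not evidence of binding, and a window without one says nothing about the factor.

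**Figure D2:**
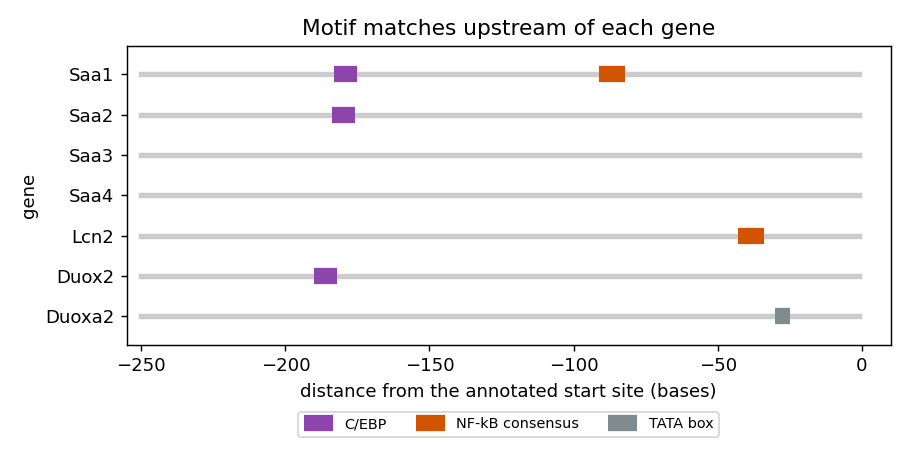
Position of motif matches (colored blocks) in the 250 bases before the annotated start site of 7 members, with distance from the start site in bases on the horizontal axis. Saa1 and Saa2 share the C/EBP match at nearly the same distance, and Saa1 and Lcn2 hold a match to the NF-κB consensus.

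Saa3 and Saa4 lie in the same cluster and differed far less. Saa3 is a serum amyloid A gene that mouse macrophages, adipocytes, and gut epithelium express outside the liver. Its intensity was 1169.9 in the KO pool and 965 in the WT pool (1.21-fold higher, log2 difference 0.28), well above the floor in both. Saa4, the constitutive member of the family, was just above the floor. It was at 198 in KO and 171 in WT on 1 probe set (log2 difference 0.21) and at 135 in KO and 129 in WT on the other (log2 difference 0.06). Each of these differences was near or under the robust SD of such differences among the 12518 genes, 0.27. With the arrays centered on the spike-ins, Saa3 was at -0.22 and Saa4 at -0.29, so the direction of both is not settled.

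Lcn2 and Hp, the binders of siderophores and of hemoglobin, were dim. Lcn2 is a marker of intestinal inflammation that epithelium and neutrophils both make. It was at 183 in the KO pool and 113 in the WT pool, under the floor in WT and above it in KO. Against the floor, its KO value was at least 1.44-fold higher, and the measured log2 difference was 0.70 (0.20 with the spike-ins as the reference). Hp was at 98.0 in KO and 93.3 in WT, under the floor in both pools, so no fold is given. Neutrophil granules are a source of both proteins. Of 12 neutrophil markers with a probe set, 3 reached the floor, none of them past 2-fold, and the intensities of the list summed to 1808 in KO and 1791 in WT. The brightest was Csf3r (871 in KO and 813 in WT). Mmp9 was at 224 in KO and 233 in WT, and Camp at 131 in KO and 136 in WT. The other 9 were under the floor in both pools. Among these were S100a8 (41.1 in KO and 42.6 in WT), S100a9 (28.6 in KO and 19.7 in WT), and Ngp (55.7 in KO and 58.3 in WT). Of 10 hepatocyte markers with a probe set, 3 reached the floor (Tat at 488 in KO and 399 in WT, Ttr at 240.3 in KO and 251 in WT, and Apoa2 at 152 in KO and 149.6 in WT), and albumin (Alb), at 60.2 in KO and 54.1 in WT, did not. The list summed to 1139 in KO and 1049.6 in WT. Tat, its brightest member, also stands in the list of other genes that microbes or IL-22 induce, given below. The part of neutrophils and hepatocytes in the Lcn2 and Hp values was not tested.

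Duoxa2 had the third-largest difference among the members, ahead of Lcn2. Its product carries DUOX2 from the endoplasmic reticulum to the cell surface, and both genes are neighbors on chromosome 2. The intensity of Duoxa2 was 334 in the KO pool and 201 in the WT pool (1.66-fold higher, log2 difference 0.73), above the floor in both. It was number 185 by size of increase, and Lcn2 was number 209. With the spike-ins as the reference, its log2 difference was 0.23. The paralogs of the pair, Duox1 (174 in KO and 113 in WT) and Duoxa1 (108 in KO and 84.6 in WT), also had higher values in KO, but Duox1 was under the floor in WT and Duoxa1 in both pools. These paralogs are named with their values already seen. Nos2, the inducible nitric oxide synthase of epithelium and macrophages, was at 70.1 in KO and 54.4 in WT. Both values were under the floor.

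**Figure D3:**
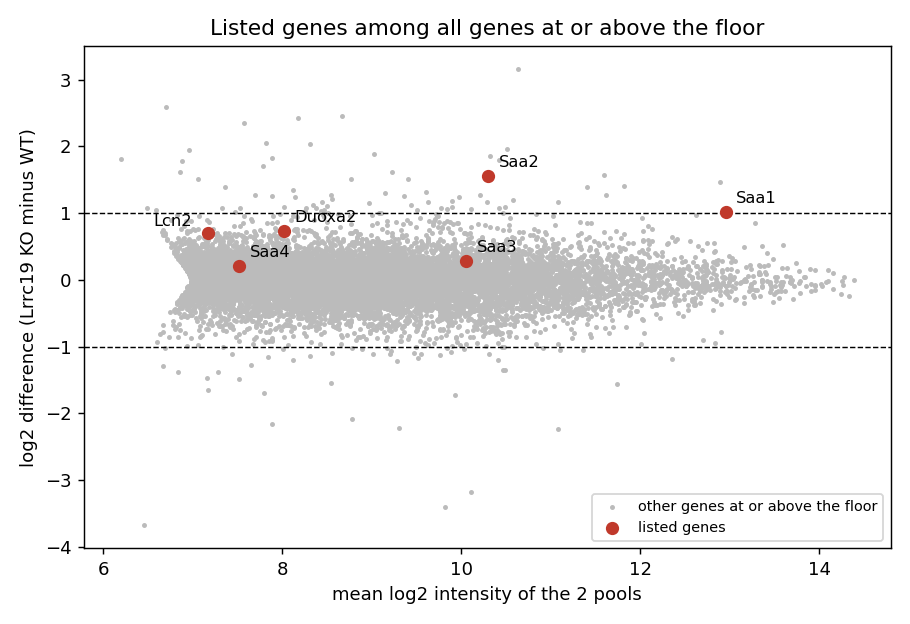
Log2 difference (Lrrc19 KO minus WT) against the mean log2 intensity of the 2 pools for the 12518 genes at or above the floor (gray) and the 6 members among them (red), 1 array per genotype. Dashed lines mark 2-fold. Saa2 (1.56) and Saa1 (1.01) lie above the upper line, and Duoxa2, Lcn2, Saa3, and Saa4 lie between 0 and 1.

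How far each difference rests on the scaling was read from 4 other scalings of the arrays. Saa2 was past 2-fold under all 4, with its lowest log2 difference, 1.06, when the spike-ins were the reference. Saa1 passed 2-fold on its second probe set when both arrays had the same median (1.16), but not on the first. Lcn2 and Duoxa2 were above 0 under each of them. Saa3, Saa4, Hp, and Nos2 were below 0 with the spike-ins, and Hp was also below 0 with equal medians (-0.01) and after quantile normalization (-0.02).

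**Figure D4:**
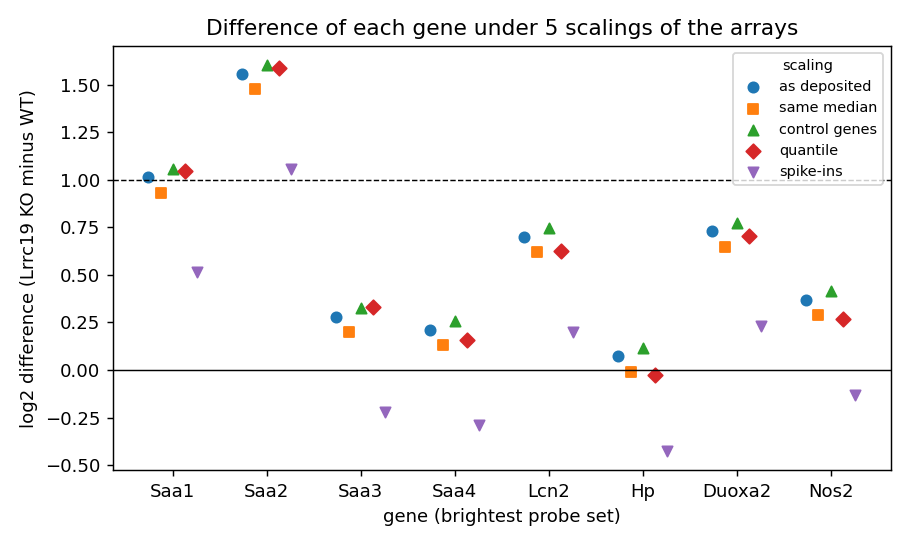
Log2 difference (Lrrc19 KO minus WT) of the brightest probe set of each of 8 members, with the values as deposited and under 4 other scalings of the arrays (symbols). The dashed line is 2-fold. Saa2 stays at 1.06 or above, and the spike-in scaling (lowest symbol of each gene) takes Saa3, Saa4, Hp, and Nos2 below 0.

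Genes that share a pathway with the members were compared in the same way, from lists made with earlier results known. Of 19 other acute-phase genes, 16 had a probe set, 6 reached the floor and none passed 2-fold (median log2 difference 0.15). Among those that both pools measured, the largest differences were those of the metalloreductase Steap4 (287 in KO and 219 in WT) and the metallothionein Mt2 (1264 in KO and 1006 in WT). The orosomucoids Orm1 and Orm2, abundant liver acute-phase products, were under the floor in both pools.

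The oxidase and nitric oxide lists held no gene past 2-fold. Of 14 other genes of NADPH oxidases, 10 had a probe set, 8 reached the floor and none passed 2-fold (median log2 difference -0.27). The largest differences, both with lower values in KO, were those of the membrane subunits Cyba (1016 in KO and 1694 in WT) and Cybb (195 in KO and 317 in WT), which phagocytes use. Of 14 other nitric oxide and arginine genes, all with a probe set, 10 reached the floor and none passed 2-fold (median -0.09). The arginase Arg2 (177 in KO and 304 in WT) and the argininosuccinate lyase Asl (209 in KO and 293 in WT) differed most, both with lower values in KO.

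Other genes that microbes or IL-22 induce in the epithelium ran in different directions. Of 29, all with a probe set, 25 reached the floor, none was called higher, and 4 were called lower in KO (median log2 difference 0.06, range -2.23 to 0.92). They were the antibacterial lectin Reg3g (1000.4 in KO and 4707 in WT, 4.71-fold lower), Reg4 (292 in KO and 1364 in WT, 4.67-fold lower), the tryptophan-degrading enzyme Ido1 (85.5 in KO and 238 in WT), and Reg3a (65.1 in KO and 160 in WT). The KO values of Ido1 and Reg3a did not reach the floor, and their folds are left out. The REG genes are known, like Saa1 and Saa2, as targets of bacterial contact and IL-22, and on these arrays they had lower and Saa1 and Saa2 higher values in KO. The study picked REG genes from these arrays, so the values given here cannot serve as separate evidence of their direction. For their lower expression in KO the paper also reports qRT-PCR and immunoblots of colon tissues.

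Most of the receptors and transcription factors that act upstream differed less than 2-fold. Of 30 genes of this list, 28 had a probe set, 27 reached the floor, 1 was called higher, and none was called lower (median log2 difference 0.17). The gene called higher was Nfkbiz, an NF-κB cofactor, at 1326 in KO and 635 in WT. The receptor gene Il1r1 followed it in size of difference, at 585 in KO and 363 in WT. The IL-22 receptor chain Il22ra1 was at 546 in KO and 474 in WT, and Stat3 at 1382 in KO and 1154 in WT. Of the 27 genes, 20 had a log2 difference above 0, where 52.1% of all genes at or above the floor did. Of 17 receptors, carriers, and heme or peroxide enzymes tied to the members' proteins, 14 had a probe set, 10 reached the floor and none passed 2-fold (median -0.11). The lactoperoxidase gene Lpo (714 in KO and 1051 in WT) and Tlr4 (489 in KO and 399 in WT) differed most among them. With the spike-ins as the reference every log2 difference is lower by 0.50, so that the medians above 0 of these related lists would lie below it. The members were chosen with their values known, so their median is not compared with those of the lists.

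**Figure D5:**
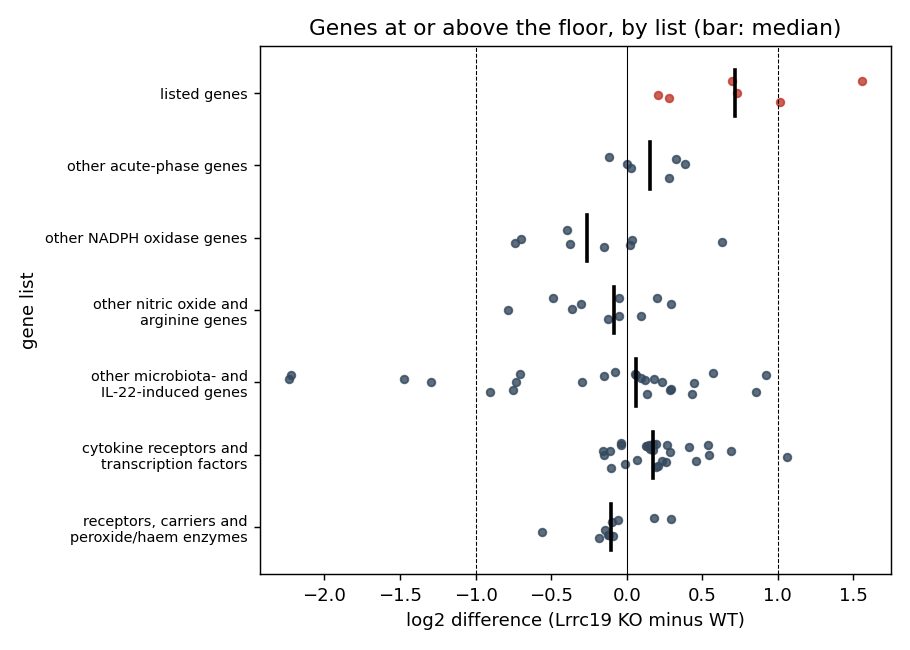
Log2 difference (Lrrc19 KO minus WT) of each gene at or above the floor (points) in the 6 members and in 6 lists of related genes, with the median of each list as a bar and 2-fold as dashed lines. The members were chosen with their values known. Nfkbiz (1.06) is the point right of 1 among the other lists, and Reg3g, Reg4, Ido1, and Reg3a lie left of -1.

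Markers of other cells and regions are given beside the members, since in pooled RNA fewer cells of a type and less RNA per cell cannot be told apart. Of 8 colon markers with a probe set, all of which reached the floor, 4 had higher and 4 lower values in KO. Among them the water channel Aqp8 (4873 in KO and 2019 in WT) and the posterior homeobox gene Hoxb13 (738 in KO and 259 in WT) were called higher and none lower, and the list summed to 62588.5 in KO and 59652 in WT. Of 10 markers of smooth muscle and fibroblasts, 9 had higher values in KO, none past 2-fold, and the list summed to 70678 in KO and 57157 in WT. Of all genes at or above the floor, 52.1% had a log2 difference above 0. Adipocytes are a source of Saa3, whose direction is not settled here. Of 9 adipocyte markers with a probe set, 7 reached the floor and 3 were called lower (Adipoq, Fabp4, and Car3), and the list summed to 3173 in KO and 8028 in WT. Adipoq was under the floor in KO, and Lep in both pools. Of 12 macrophage and monocyte markers, 11 reached the floor, 3 of them with higher values in KO. None passed 2-fold, and the sums were 9455 in KO and 11122 in WT. Of 10 enterocyte markers, 9 reached the floor, all of them with higher values in KO. None passed 2-fold, and the list summed to 70383 in KO and 64597 in WT. The part of these cells in the differences of the members was not tested.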

How the data were processed

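Cells described as gut epithelial cells of Lrrc19 KO and WT mice were each profiled on 1 Affymetrix array, with RNA pooled from 5 mice. The sample titles call them intestine pools. The labels gave the genotypes. The authors deposited linear intensities between 1 and 25842, whose median was 131 for KO and 124 for WT. RMA is named in the submitters' processing notes, but it usually returns log2 values with equal distributions, so the scaling between arrays is not known.

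Before taking log2, values below 1 were raised to 1. Gene counts leave out 64 control probe sets. The remaining 45037 comprise 34945 with a single gene symbol, 932 with more, and 9160 that are unnamed in the annotation used. RefSeq for GRCm38.p6 gave current symbols, by gene identifier, to 34741 of the 34945. Where a gene had several probe sets, that with the highest mean log2 stood for it, and the floor was set at the 50th percentile of the values of non-control probe sets. Calls needed a log2 difference of at least 1 in size. Promoter windows came from the RefSeq table, which held 7 of the 9 members, and their motifs were chosen after the sequences were read. No protein sequence was used here.

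The members, gene lists, and rules were chosen with earlier results of these data known. Named are all members, and of each related list up to 4 genes past 2-fold or else the 2 with the largest difference among those above the floor in both pools. The other genes given (Orm1, Orm2, Duox1, Duoxa1, Il1r1, Il22ra1, Stat3, and markers) were chosen after their values were seen. Alternatives were 4 scalings, the mean of all probe sets, no _s_at or _x_at probe sets, a floor at the 75th percentile, and values under the floor set to it. Python 3.11.15, pandas 2.3.3, and numpy 2.4.6 were used.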

Additional observations from a re-analysis of the deposited data

How the results depend on the processing

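No member was called lower in KO under any of the 8 alternatives. The number of members called higher, 2 with the values as deposited, was 1 (Saa2) with both arrays set to the same median, 1 (Saa2) with the spike-ins as the reference, and 1 (Saa1, on its other probe set) without probe sets that can match several transcripts, which leaves Saa2 with none. Over all genes, 70 were higher and 51 lower as deposited, against 53 and 76 with equal medians, 82 and 38 with 7 control genes as the reference, and 22 and 677 with the spike-ins, which moved the median of all genes by -0.50. With all probe sets averaged, 46 genes were higher. Of 63 alternative values of the 8 members, 54 moved by less than the robust SD of 0.27 and 9 by more, 8 of these with the spike-ins and 1 with Nos2 set to the floor. The causes were not tested. With a floor at the 75th percentile, Saa1, Saa2, and Saa3 were the members that reached it. No paired analysis was possible because each genotype had 1 array, and for the same reason no replicate could be left out.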

Other observations

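Among the genes at or above the floor, those whose pair of log2 levels in the KO and WT pools lay nearest to that of Saa1 were the gasdermin Gsdmc2 (12601 in KO and 4563 in WT) and the smooth muscle genes Cnn1 (8799 in KO and 5995 in WT) and Myh11 (8349 in KO and 5685 in WT). Nearest to Saa2 were the schlafen gene Slfn4 (2435 in KO and 675 in WT), Ly6m (1837 in KO and 764 in WT), and the long noncoding RNA Neat1 (2565 in KO and 736 in WT). Nearness was the Euclidean distance over 2 arrays, from 0.33 to 0.43 for Saa1 and from 0.21 to 0.25 for Saa2, and is a description only.

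Markers of the lymphocytes that make IL-22 and IL-17 were dim. Of 9 in the list, 5 had a probe set of their own and 4 reached the floor, none of them past 2-fold. The cytokine gene Il17a was at 232 in KO and 211 in WT, the chemokine receptor Ccr6 at 138 in KO and 115 in WT, and the T cell chain Cd3e at 220.4 in KO and 202 in WT. The list summed to 997 in KO and 899.7 in WT.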
